A study of Homo sapiens with 24 samples.

Results

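The comparison asks whether 4 h of Acetalax changed gene expression differently in 2 drug-adapted human prostate cancer cell populations, LNCaP CE and PC3 CE. It used 12 of the series' 24 RNA-seq libraries, 3 in each of 4 groups: LNCaP CE with Acetalax (10 µM for 4 h), LNCaP CE control (untreated), PC3 CE with Acetalax at the same dose and time, and PC3 CE control. CE stands for chronic exposure. Per the labels, all 4 groups descend from cells passaged in rising Acetalax until they were stably resistant, and then spent 2 weeks free of it. LNCaP cells grew in RPMI-1640 and PC3 cells in F-12, both with serum, so line and medium cannot be told apart. The series describes biological replicates in 1 batch but names no separate cultures or clones, so p-values measure the spread between these libraries, which may be partly technical.

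Acetalax is oxyphenisatin acetate, a former laxative. The series' title ties its activity to TRPM4, a channel that opens on intracellular calcium and lets monovalent cations, mainly sodium, pass. Immediate early genes are transcribed within minutes of a stimulus without new protein synthesis. Many encode transcription factors of the FOS, JUN, EGR and NR4A families, and kinase signals, calcium and cell stress all induce them. ERK, the last kinase of the RAS-RAF-MEK cascade, is held in check by phosphatases and Sprouty proteins that it induces itself. Cholesterol synthesis genes are raised by the transcription factor SREBP2 when sterols run low.

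The labelled cell type, an epithelial cancer line, was checked against marker genes. The summed level of 15 general epithelial markers was 9.09 to 13.0 TPM in the LNCaP CE libraries and 26.1 to 39.5 TPM in the PC3 CE libraries, against 2098 to 2646 TPM in parental LNCaP and 7509 to 8626 TPM in parental PC3. TPM is a level scaled for transcript length and library size, whereas fold changes below come from expected counts. The epithelial keratin KRT18 was the highest of KRT18, KRT8 and EPCAM, at 4.99 to 6.24 TPM in LNCaP CE and 13.2 to 18.1 TPM in PC3 CE. KRT8 was at 0.44 to 0.68 TPM in LNCaP CE and 3.37 to 4.99 TPM in PC3 CE, and EPCAM at 0.55 to 0.63 TPM and 1.72 to 4.28 TPM. Vimentin (VIM), a mesenchymal filament protein, was at 3981 to 4633 TPM in LNCaP CE and 1946 to 3071 TPM in PC3 CE. In parental LNCaP it was at 1.96 to 9.0 TPM and in parental PC3 at 25.15 to 34.03 TPM. Among the 15 mesenchymal markers, FN1 went the other way in both lines, and CDH2 and COL1A1 did so in PC3. FN1 was at 1.58 to 4.32 TPM in LNCaP CE and 1.76 to 3.12 TPM in PC3 CE. Its parental levels were 169.88 to 443.59 TPM in LNCaP and 138.5 to 189.29 TPM in PC3. Of the 15 epithelial markers, 2 or 3 averaged at least 1 TPM in the LNCaP CE groups. In the PC3 CE groups 6 or 7 did so, and the other markers averaged less. CDH1 was at most 0.31 TPM in LNCaP CE and 0.81 TPM in PC3 CE, and GRHL2 at most 0.04 and 0.24 TPM. Parental CDH1 was at 135.7 to 200.36 TPM in LNCaP and 141.37 to 165.45 TPM in PC3. Epithelial markers were thus low, and some were near 0. LNCaP CE and PC3 CE below mean the libraries so labelled.

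Each response is a log2 ratio of Acetalax over control, and the difference is the LNCaP CE response minus the PC3 CE response. A positive difference means that the gene rose more, or fell less, in LNCaP CE. Errors after ± are standard errors, and adjusted p-values come from edgeR's quasi-likelihood test over all genes tested, with a threshold of 0.05. Library totals were 45844310 to 57728014 expected counts. The first PC3 CE Acetalax library stood apart: between it and the other 2 of its group, 1836 and 1923 genes lay over 2-fold apart, against 58 to 95 genes for every other pair of replicates. In it, 751 of 18207 genes tested were at least 2-fold above all 5 other PC3 CE libraries and 506 were at least 2-fold below them. Comparisons are therefore made with that library (12 libraries) and without it (11 libraries).

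With 12 libraries, 44 of 18207 genes differed in response, which is 0.242%. Of these, 8 were higher (0.0439%) and 36 were lower (0.198%) in LNCaP CE, and 16 differed at least 2-fold (0.0879%). Without PC3 CE Acetalax 1, 2610 of 18522 genes differed, or 14.1%, and 202 of them at least 2-fold (1.09%). All 44 genes were among the 2610, with the same direction. The typical standard error of a difference fell to 0.117 with 11 libraries, against 0.248 with 12 (medians over genes, log2). With 11 libraries 1113 genes were higher (6.01%) and 1497 were lower (8.08%) in LNCaP CE. That split depends on scaling: with RLE in place of TMM size factors, 2291 were higher and 1159 were lower, so small differences of either sign are not read here by count of direction. Under RLE the median difference over all genes was 0.04, against -0.01.

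Expression changed between control and Acetalax libraries in both CE populations. In bulk RNA a change in the share of cells and a change per cell cannot be told apart. The sample titles name no vehicle control, so effects of the drug and of its solvent or handling cannot be told apart either. With 12 libraries 2726 genes (15.0%) changed in LNCaP CE, of which 1227 rose (6.74%) and 1499 fell (8.23%). In PC3 CE 2505 genes (13.8%) changed, of which 1439 rose (7.9%) and 1066 fell (5.85%). Changes of at least 2-fold numbered 487 (2.67%) in LNCaP CE and 567 (3.11%) in PC3 CE. With 11 libraries 7813 genes (42.2%) changed in LNCaP CE, 3822 up (20.6%), 3991 down (21.5%) and 812 at least 2-fold (4.38%). In PC3 CE 5688 (30.7%) changed, 2941 up (15.9%), 2747 down (14.8%) and 572 at least 2-fold (3.09%). The split depends on the unit: by limma on log2(TPM + 1), 1340 genes rose and 5169 fell in LNCaP CE, and 1378 rose and 3371 fell in PC3 CE. Among the genes called in both lines with 11 libraries, 3857 changed in the same direction and 188 in opposite directions. The responses of the 2 lines share no library, and over 18522 genes, which do not vary independently, their Pearson r was 0.365 and Spearman rho 0.46.

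**Figure D1:**
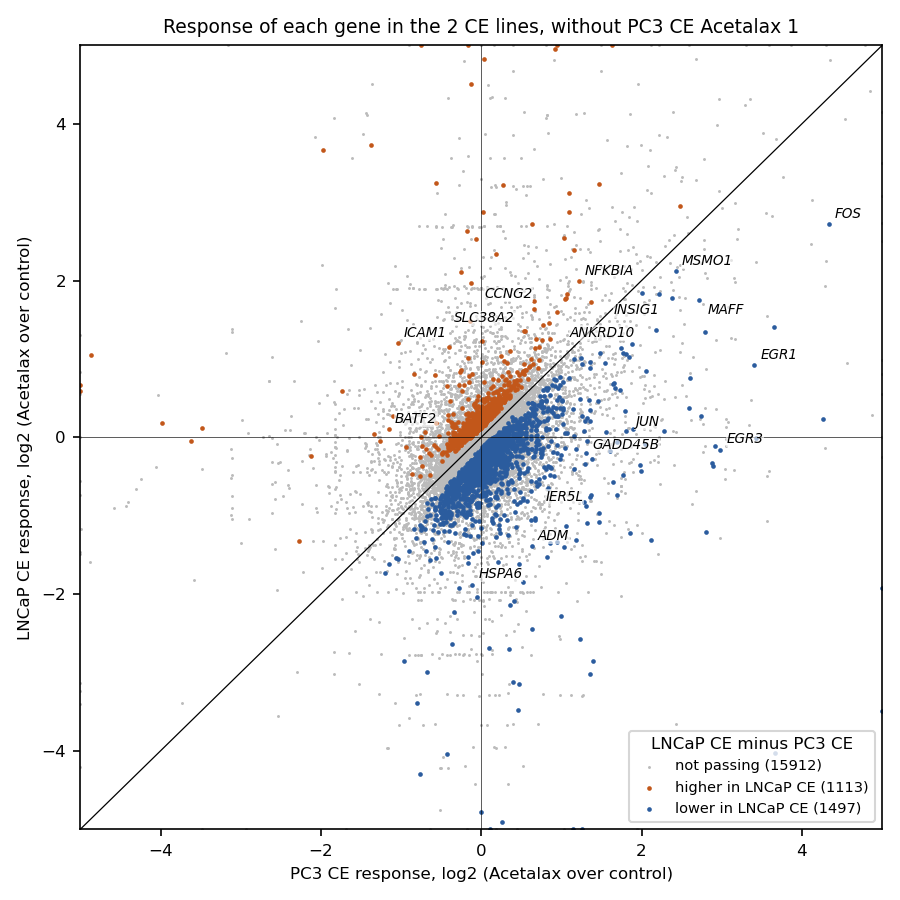
Response to Acetalax (log2 over control) of 18522 genes in LNCaP CE (vertical axis) and PC3 CE (horizontal axis), without PC3 CE Acetalax 1. Orange points are the 1113 genes with a higher response in LNCaP CE and blue points the 1497 with a lower one, by edgeR at an adjusted p of 0.05. The diagonal marks equal responses. FOS, EGR1 and EGR3 lie far to the right of it, while NFKBIA, CCNG2 and ICAM1 lie above it. The 64 genes beyond ±5 are drawn at the edge.

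Of the 1497 genes lower in LNCaP CE with 11 libraries, 131 fell in LNCaP CE and rose in PC3 CE. A further 153 rose in both lines, less so in LNCaP CE, and 273 fell in both, further in LNCaP CE. Another 623 passed the test for a response in LNCaP CE alone, 289 in PC3 CE alone and 28 in neither. Of the 1113 genes higher in LNCaP CE, 57 rose in LNCaP CE and fell in PC3 CE, 218 rose in both and 38 fell in both. The rest were 575 genes that passed in LNCaP CE alone, 202 in PC3 CE alone and 23 in neither.

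The immediate early genes were, by median, the list with the lowest difference with 11 libraries. Of its 32 members, 24 had a lower response in LNCaP CE with 11 libraries and 0 a higher one, against 8.08% lower among all genes. Their median difference was -0.79, against -0.01 for all genes. Most members rose in each line: 19 rose and 2 fell in LNCaP CE (median 0.48), against 20.6% and 21.5% of all genes. In PC3 CE 29 rose and 0 fell (median 1.32), against 15.9% and 14.8% of all genes. With 12 libraries the 2 members ARC and GADD45B passed, both lower in LNCaP CE, against 0.198% lower among all genes, and the median was -1.37. The response of a single Acetalax library, its log2(TPM + 1) minus the mean of its line's controls, gives the spread behind these values. In 29 of 32 members all 3 LNCaP CE libraries lay below all 3 PC3 CE libraries, whereas 21.0% of all genes did so. Set against the other 2 PC3 CE Acetalax libraries only, 30 of 32 members did so, against 31.4% of all genes. With the parental libraries added to the 11 in 1 fit, 3 of the 32 members passed, all lower in LNCaP CE. In that fit 16 of 22520 genes were lower. The list median was -0.73, against 0.04 for all genes.

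Some of these promoters carry known control sequences, and 3 of the list are shown because they hold a CArG box or a cAMP response element. They are RefSeq promoter windows of 300 bases on GRCh38.p14, from 250 bases before to 50 bases after the gene start, read 5′ to 3′. Capitals in EGR1 (chr5:138465229-138465528, plus strand) and SRF (chr6:43171019-43171318, plus strand) mark CArG boxes, the sites bound by serum response factor, and in MAFF (chr22:38201744-38202043, plus strand) the cAMP response element TGACGTCA.
EGR1: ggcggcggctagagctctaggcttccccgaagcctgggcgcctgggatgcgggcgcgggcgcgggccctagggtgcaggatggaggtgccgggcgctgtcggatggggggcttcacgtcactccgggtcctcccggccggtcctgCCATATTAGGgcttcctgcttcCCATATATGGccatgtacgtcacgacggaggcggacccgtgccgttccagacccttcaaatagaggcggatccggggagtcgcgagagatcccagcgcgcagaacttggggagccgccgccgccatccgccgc
SRF: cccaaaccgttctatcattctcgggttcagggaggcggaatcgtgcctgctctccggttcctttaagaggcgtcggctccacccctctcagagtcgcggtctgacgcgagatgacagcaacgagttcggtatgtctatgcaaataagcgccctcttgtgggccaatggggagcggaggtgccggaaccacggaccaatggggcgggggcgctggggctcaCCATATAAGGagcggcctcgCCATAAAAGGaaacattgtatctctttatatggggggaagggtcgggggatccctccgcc
MAFF: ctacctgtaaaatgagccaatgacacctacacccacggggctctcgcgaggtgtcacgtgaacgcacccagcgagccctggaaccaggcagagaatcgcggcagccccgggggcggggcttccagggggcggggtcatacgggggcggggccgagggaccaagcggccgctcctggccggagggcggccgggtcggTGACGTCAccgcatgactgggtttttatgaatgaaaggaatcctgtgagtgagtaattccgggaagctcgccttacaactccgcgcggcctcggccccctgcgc
Both strands were searched. A CArG box was present in 351 of 27305 promoters (1.29%), TGACGTCA in 540 (1.98%) and the AP-1 site TGANTCA, in which FOS and JUN proteins bind, in 2120 (7.76%). RefSeq windows were at hand for 24 of the 32 early genes, of which 2 held a CArG box, 2 the cAMP element (MAFF and JUND) and 1 the AP-1 site (FOSL2). EGR1 held 2 CArG boxes and SRF 2. These matches describe the windows and were not tested against the responses.

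Among the transcription factors, EGR1, a zinc finger factor induced by growth signals, had 76.3, 81.0 and 79.6 TPM in LNCaP CE with Acetalax, against 47.6, 43.2 and 46.7 TPM in LNCaP CE control. Its PC3 CE levels were 600.0, 122 and 98.7 TPM with Acetalax, against 11.8, 10.9 and 10.7 TPM in control. Acetalax and control libraries did not overlap in either line, and the control level was lower in PC3 CE. EGR1 rose by 0.92 ± 0.06 (log2) in LNCaP CE and by 3.40 ± 0.08 in PC3 CE with 11 libraries, a difference of -2.48 ± 0.10 (adjusted p = 2.9e-10). With 12 libraries the difference was -3.79 ± 0.77 and missed the threshold (adjusted p = 0.078). FOS, a subunit of the AP-1 factor, had 49.8, 50.9 and 52.8 TPM in LNCaP CE with Acetalax, against 8.69, 8.36 and 9.83 TPM in control. PC3 CE held 693, 133 and 111 TPM with Acetalax, against 7.02, 7.03 and 7.26 TPM in control. Its control levels were thus close in the 2 lines, and its difference was -1.61 ± 0.11 with 11 libraries (adjusted p = 1.2e-07). JUN, the partner of FOS in AP-1, had 1.26, 1.18 and 1.16 TPM in LNCaP CE with Acetalax, against 1.1, 1.28 and 1.12 TPM in control, and these groups overlapped. The PC3 CE libraries had 258, 20.4 and 13.2 TPM with Acetalax, against 4.65, 4.81 and 5.59 TPM in control. The JUN difference was -1.73 ± 0.23 with 11 libraries (adjusted p = 0.00013), a call that was lost with the parental libraries added. EGR3, of the EGR family, gave the largest negative difference of the list by the 11-library fit, -3.14 ± 0.18 (adjusted p = 1.5e-08). It had 3.12, 3.88 and 3.75 TPM in LNCaP CE with Acetalax, against 5.15, 3.81 and 5.17 TPM in control, and in PC3 CE 95.3, 12.8 and 10.1 TPM with Acetalax, against 1.69, 1.17 and 1.62 TPM in control. ATF3, a stress-induced repressor, was decided by single libraries: PC3 CE Acetalax held 311, 10.2 and 3.85 TPM, against 2.17, 2.26 and 2.04 TPM in control. Its difference was -1.79 ± 0.42 with 11 libraries, and leaving out PC3 CE Acetalax 2 as well ended the call (adjusted p = 0.09).

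GADD45B and ARC passed the test with and without the first PC3 CE library. GADD45B, a stress sensor that acts on MAP kinase signalling, had 14.5, 15.3 and 16.9 TPM in LNCaP CE with Acetalax, against 16.1, 16.1 and 15.1 TPM in control. In PC3 CE it had 78.1, 49.9 and 44.2 TPM with Acetalax, against 18.9, 21.8 and 19.7 TPM in control. Control levels were alike in both lines to within a few TPM, and only the PC3 CE groups were separate. The GADD45B difference was -1.49 ± 0.24 with 12 libraries (adjusted p = 0.039) and -1.20 ± 0.10 with 11 (adjusted p = 6.2e-07). ARC, a cytoskeleton-associated early gene first known from neurons, differed by -2.70 ± 0.46 with 12 libraries (adjusted p = 0.047). IER2, a nuclear early protein, had 86.3, 90.7 and 93.8 TPM in LNCaP CE with Acetalax, against 95.5, 93.9 and 96.3 TPM in control. Its PC3 CE levels were 148, 99.1 and 88.8 TPM with Acetalax, against 46.5, 46.8 and 47.3 TPM in control. PC3 CE with Acetalax thus reached about the level that LNCaP CE held without it, and the IER2 difference was -1.02 ± 0.07 with 11 libraries (adjusted p = 1.2e-07). CCN1, a secreted matrix protein, rose by 1.36 ± 0.07 in LNCaP CE and 2.19 ± 0.05 in PC3 CE, and its difference was -0.82 ± 0.09 (adjusted p = 1.2e-05).

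Further early genes ranged widely. ZFP36, which hastens the decay of cytokine mRNAs, rose by 1.83 ± 0.06 in LNCaP CE and 2.22 ± 0.07 in PC3 CE, and its difference of -0.38 ± 0.09 passed with 11 libraries (adjusted p = 0.012). KLF6, a zinc finger factor, had 27.4, 29.3 and 28.3 TPM in LNCaP CE with Acetalax, against 22.7, 22.1 and 22.4 TPM in control, and 253, 122 and 119.6 TPM in PC3 CE with Acetalax, against 88.2, 84.8 and 85.8 TPM in control. Its level was higher in PC3 CE throughout, yet its difference in response was -0.05 ± 0.05 (adjusted p = 0.58). SRF itself rose in both lines and its difference was -0.09 ± 0.05 (adjusted p = 0.24). IER5L, a relative of IER5, moved in opposite directions with 11 libraries (difference -1.32 ± 0.10, adjusted p = 2.3e-07) and did not pass with 12. It had 31.3, 38.8 and 35.7 TPM in LNCaP CE with Acetalax, against 61.3, 57.3 and 57.2 TPM in control. PC3 CE held 17.6, 40.7 and 38.1 TPM with Acetalax, against 26.1, 26.3 and 23.8 TPM in control, so the first library lay below the controls and the other 2 above. These list members other than ARC, GADD45B, IER2, CCN1, EGR1, EGR3, JUN and ATF3 were chosen after their values were seen.

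**Figure D2:**
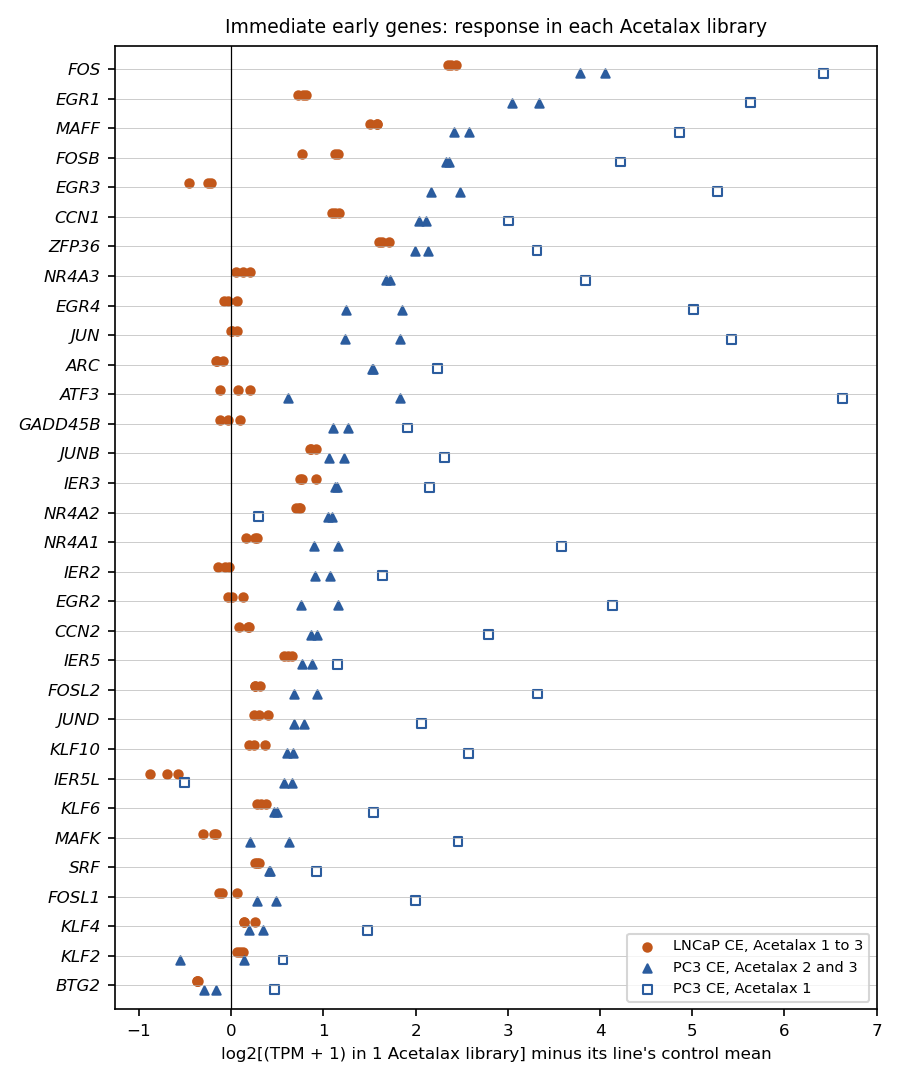
Response of the 32 immediate early genes in each Acetalax library, as log2(TPM + 1) minus the mean of the line's control libraries. Orange circles are LNCaP CE libraries, filled triangles PC3 CE libraries 2 and 3, and open squares PC3 CE library 1. In 30 of 32 genes both triangles lie to the right of all 3 circles. The open square lies furthest right for most genes, but not for IER5L or NR4A2.

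The ERK feedback list gave a smaller contrast. Besides genes that restrain ERK signalling it holds others, such as the ETS factors ETV1, ETV4 and ETV5. Of 18 tested members of the ERK feedback list, 5 had a lower response in LNCaP CE with 11 libraries and 0 a higher one, against 8.08% lower and 6.01% higher among all genes, with a median difference of -0.09. With RLE scaling 5 were lower and 3 higher, against 1159 and 2291 of 18522 genes. In LNCaP CE 10 members rose and 2 fell, against 20.6% and 21.5% of all genes. In PC3 CE 12 rose and 0 fell, against 15.9% and 14.8% of all genes. SPRY4, a Sprouty inhibitor of the cascade, passed with 12 libraries as well. It had 133, 131 and 135 TPM in LNCaP CE with Acetalax, against 114, 108 and 120.0 TPM in control. The PC3 CE libraries had 87.5, 93.5 and 95.3 TPM with Acetalax, against 48.5, 51.4 and 49.5 TPM in control. All 4 groups were separate, and the first PC3 CE library lay close to its replicates here. The SPRY4 difference was -0.61 ± 0.07 with 12 libraries (adjusted p = 0.0088) and -0.64 ± 0.05 with 11 (adjusted p = 1.8e-07). DUSP5, a phosphatase of nuclear ERK, differed by -1.22 ± 0.13 with 11 libraries (adjusted p = 1.6e-05), with 2.97, 3.15 and 3.06 TPM in LNCaP CE with Acetalax, against 3.77, 4.16 and 3.84 TPM in control, and 22.4, 9.29 and 8.82 TPM in PC3 CE with Acetalax, against 4.32, 4.96 and 5.17 TPM in control. DUSP6, which acts on cytoplasmic ERK, differed by -0.85 ± 0.04 (adjusted p = 3.0e-09). Its rise in LNCaP CE, 0.17 ± 0.03 by counts, went against its TPM, which were 135 to 140 with Acetalax and 144 to 154 in control, so the LNCaP CE direction depends on the unit. SPRY1, chosen after its values were seen, rose by 1.19 ± 0.04 in LNCaP CE and 1.07 ± 0.05 in PC3 CE, and its difference of 0.12 ± 0.06 did not pass (adjusted p = 0.21). MYC, a growth regulator, also passed with 12 libraries: 166, 184 and 177 TPM in LNCaP CE with Acetalax stood against 180, 173 and 177 TPM in control. In PC3 CE it had 191, 224 and 212 TPM with Acetalax, against 148, 148 and 138 TPM in control, and the difference was -0.52 ± 0.09 (adjusted p = 0.049). The 12-library calls of SPRY4 and MYC were both lost without LNCaP CE Acetalax 2, LNCaP CE control 1 or PC3 CE control 3. In each of those fits 0 genes passed as lower in LNCaP CE.

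**Figure D3:**
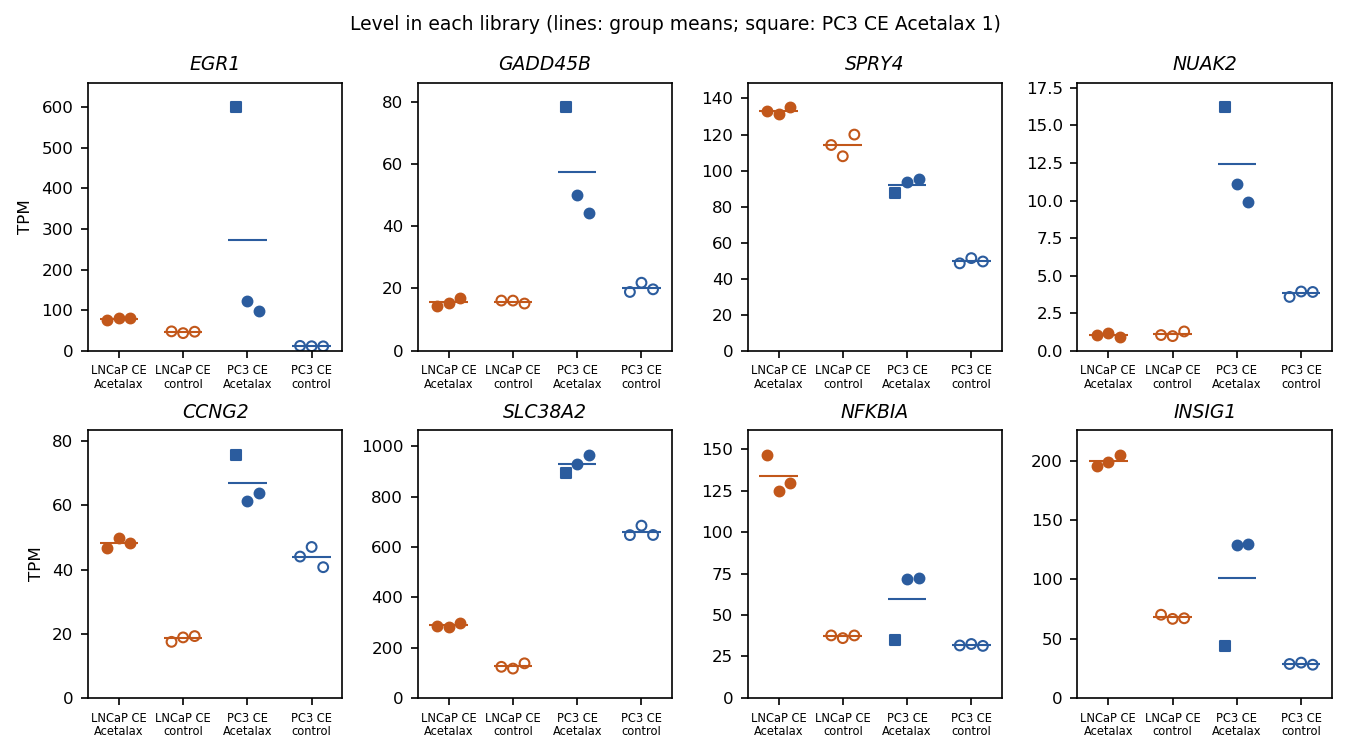
Level of 8 genes in TPM (linear axes from 0) in each library, with LNCaP CE in orange, PC3 CE in blue, Acetalax libraries filled and controls open. Lines are group means and the square is PC3 CE Acetalax 1. GADD45B and NUAK2 rose in PC3 CE and did not pass in LNCaP CE, CCNG2 and SLC38A2 rose in both lines with a larger ratio in LNCaP CE, and INSIG1 in the square stayed far below the other 2 PC3 CE Acetalax libraries.

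Of the 8 genes with a higher response in LNCaP CE with 12 libraries, 3 rose in both lines, 4 passed the test for a response in LNCaP CE alone and 1 in PC3 CE alone. CCNG2, a cyclin that slows the cell cycle, had 46.9, 49.8 and 48.2 TPM in LNCaP CE with Acetalax, against 17.5, 18.9 and 19.3 TPM in control. Its PC3 CE levels were 75.8, 61.5 and 63.9 TPM with Acetalax, against 44.1, 47.0 and 40.8 TPM in control. It rose by 1.64 ± 0.08 in LNCaP CE and 0.73 ± 0.08 in PC3 CE, and the difference was 0.91 ± 0.11 (adjusted p = 0.0088). SLC38A2, the amino acid transporter SNAT2, had 285, 282 and 297 TPM in LNCaP CE with Acetalax, against 124, 117 and 137 TPM in control, and 894, 931 and 967 TPM in PC3 CE with Acetalax, against 647, 685 and 648 TPM in control. Its level was higher in PC3 CE and its rise larger in LNCaP CE, a difference of 0.82 ± 0.08 (adjusted p = 0.0079). ANKRD10, an ankyrin repeat protein, differed by 0.68 ± 0.07 by counts (adjusted p = 0.0082), while its LNCaP CE Acetalax levels spread over 74.4, 75.9 and 106 TPM. SLC30A1, which exports zinc, had 11.0, 12.3 and 12.3 TPM in LNCaP CE with Acetalax, against 8.64, 7.54 and 8.07 TPM in control. PC3 CE held 4.64, 4.65 and 5.54 TPM with Acetalax, against 6.18, 6.03 and 5.88 TPM in control, and the difference was 0.90 ± 0.12 (adjusted p = 0.015). BATF2, a factor of the AP-1 superfamily, passed in PC3 CE alone: it had 11.0, 11.0 and 12.7 TPM in LNCaP CE with Acetalax, against 11.6, 12.0 and 12.2 TPM in control, and fell in PC3 CE, to 0.53, 0.55 and 0.53 TPM with Acetalax, against 1.38, 1.28 and 1.26 TPM in control. The BATF2 difference was 1.27 ± 0.13 (adjusted p = 0.0079).

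The other genes lower in LNCaP CE with 12 libraries were of several kinds. NUAK2, a stress-activated kinase related to AMPK, had 1.04, 1.18 and 0.91 TPM in LNCaP CE with Acetalax, against 1.04, 0.97 and 1.28 TPM in control. The PC3 CE libraries had 16.2, 11.1 and 9.90 TPM with Acetalax, against 3.58, 3.94 and 3.91 TPM in control, a difference of -1.73 ± 0.27 (adjusted p = 0.031). SKIDA1 had 30.2, 29 and 29.1 TPM in LNCaP CE with Acetalax, against 33.1, 33.0 and 35.7 TPM in control, and 45.8, 61.2 and 63.4 TPM in PC3 CE with Acetalax, against 33.2, 32.2 and 31.8 TPM in control. Its control levels overlapped between the lines, and the difference was -0.94 ± 0.12 (adjusted p = 0.015). CRY2, a repressor of the circadian clock, fell by 0.52 ± 0.10 in LNCaP CE and rose by 0.33 ± 0.10 in PC3 CE (difference -0.85 ± 0.14, adjusted p = 0.036). The zinc finger gene ZBTB25 likewise fell by 0.57 ± 0.07 in LNCaP CE and rose by 0.39 ± 0.07 in PC3 CE (difference -0.96 ± 0.10, adjusted p = 0.0079). ZNF234 and ZNF69, both zinc finger genes, fell by 0.97 ± 0.09 and 1.06 ± 0.13 in LNCaP CE, while their PC3 CE responses of 0.13 ± 0.09 and 0.07 ± 0.13 did not pass. IRGQ fell by 0.74 ± 0.09 in LNCaP CE and its PC3 CE response was 0.15 ± 0.09. DNHD1 rose in both lines, by 0.60 ± 0.14 in LNCaP CE and 1.84 ± 0.15 in PC3 CE. Leaving out a library other than PC3 CE Acetalax 1 often ended these calls: of 11 such fits, BATF2, CCNG2 and SLC38A2 lost the call in 2, ANKRD10 and ZBTB25 in 3, ZNF234 in 5 and SLC30A1 in 9, ARC, NUAK2, GADD45B, DNHD1 and IRGQ in 10, and ZNF69, SKIDA1 and CRY2 in all 11.

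Cholesterol synthesis genes rose in both lines. Of 23 tested members, 20 rose and 0 fell in LNCaP CE (median 0.65), and 21 rose and 0 fell in PC3 CE (median 0.72) with 11 libraries, against 20.6% and 15.9% of all genes that rose. With 12 libraries 7 rose in LNCaP CE and 4 in PC3 CE, against 6.74% and 7.9% of all genes. In response, 1 member was higher and 6 were lower in LNCaP CE with 11 libraries, against 6.01% and 8.08% of all genes, with a median difference of -0.05. MSMO1, a sterol C4-methyl oxidase, had 119, 122 and 122 TPM in LNCaP CE with Acetalax, against 30.7, 27.9 and 32.1 TPM in control. In PC3 CE it had 19.5, 127 and 128 TPM with Acetalax, against 24.0, 24.8 and 24.8 TPM in control. In 2 PC3 CE libraries it thus rose as in LNCaP CE, and in the first it lay below the controls. INSIG1, a sterol-sensing brake on SREBP processing, had 195, 198 and 205 TPM in LNCaP CE with Acetalax, against 70.1, 66.6 and 67.1 TPM in control, and 43.7, 129 and 129.7 TPM in PC3 CE with Acetalax, against 28.6, 29.7 and 28.0 TPM in control. Its difference was -0.60 ± 0.05 with 11 libraries (adjusted p = 5.7e-07) and -0.24 ± 0.43 with 12 (adjusted p = 0.79). Both members were chosen after their values were seen. With 12 libraries, 0 of 23 members passed for the difference, and the median was 0.26.

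Integrated stress response genes, which the factor ATF4 induces when protein synthesis or amino acid supply is disturbed, depended on the first PC3 CE library. With 12 libraries their median difference was -1.31, and 1 of 30 members passed, SLC38A2, which was higher in LNCaP CE. With 11 libraries the median was 0.03, with 4 members higher and 3 lower, against 6.01% and 8.08% of all genes. That split rested on single libraries: 11 were higher and 1 lower without PC3 CE Acetalax 2 as well, and 4 higher and 6 lower without PC3 CE Acetalax 3. With RLE scaling 6 were higher and 1 lower, against 2291 and 1159 of 18522 genes. DDIT3, the pro-apoptotic factor CHOP, had 31.1, 26.2 and 27.9 TPM in LNCaP CE with Acetalax, against 29, 27.4 and 44.3 TPM in control. Its PC3 CE levels were 936, 43.0 and 22.7 TPM with Acetalax, against 16.7, 14.4 and 14.6 TPM in control. The 3 PC3 CE libraries spread widely, and its difference was -4.70 ± 1.5 with 12 libraries (adjusted p = 0.23) and -1.34 ± 0.28 with 11 (adjusted p = 0.0045). PPP1R15A (GADD34), which restores translation by recruiting a phosphatase to eIF2, had 31.1, 31.7 and 31.5 TPM in LNCaP CE with Acetalax, against 9.09, 9.65 and 11.7 TPM in control. PC3 CE held 241, 38.8 and 33.5 TPM with Acetalax, against 17.7, 18.1 and 19.6 TPM in control, and its difference was 0.72 ± 0.11 with 11 libraries (adjusted p = 0.00044) and -0.82 with 12. SESN2, a sestrin that restrains mTORC1, also changed sign: 0.89 ± 0.12 with 11 libraries (adjusted p = 0.00021) and -0.63 ± 0.82 with 12 (adjusted p = 0.7). It had 60.7, 55.0 and 57.7 TPM in LNCaP CE with Acetalax, against 38.2, 34.4 and 47.6 TPM in control, and 163, 26.9 and 22.7 TPM in PC3 CE with Acetalax, against 30.2, 31.5 and 30.5 TPM in control. ATF4 rose in both lines, by 0.57 ± 0.04 in LNCaP CE and 0.50 ± 0.05 in PC3 CE with 11 libraries.

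The same library carried the hypoxia and glycolysis list. Its median response was 1.96 in PC3 CE Acetalax 1, against -0.02 and -0.01 in the other 2 and -0.12 to -0.08 in LNCaP CE. VEGFA, an angiogenic growth factor, had 55.9, 53 and 49.1 TPM in LNCaP CE with Acetalax, against 42.6, 46.5 and 48.2 TPM in control. The PC3 CE libraries had 228, 48.5 and 48.4 TPM with Acetalax, against 45.1, 44.7 and 41.7 TPM in control. The cell cycle list went the other way in it, with a median response of -1.54, against -0.17 and -0.12 in the other PC3 CE libraries. What set that library apart was not tested. With it left out, 4 of 28 hypoxia list members were lower in LNCaP CE and 4 higher, against 8.08% and 6.01% of all genes. With RLE scaling 2 were lower and 7 higher, against 1159 and 2291 of 18522 genes. ADM and SLC2A3, both lower, moved in opposite directions in the 2 lines. ADM, the vasodilator peptide adrenomedullin, fell by 1.39 ± 0.17 in LNCaP CE and rose by 0.63 ± 0.11 in PC3 CE (difference -2.02 ± 0.20, adjusted p = 7.2e-06). SLC2A3, a glucose transporter, fell by 0.26 ± 0.04 in LNCaP CE and rose by 0.75 ± 0.05 in PC3 CE (difference -1.0 ± 0.07, adjusted p = 7.3e-08).

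**Figure D4:**
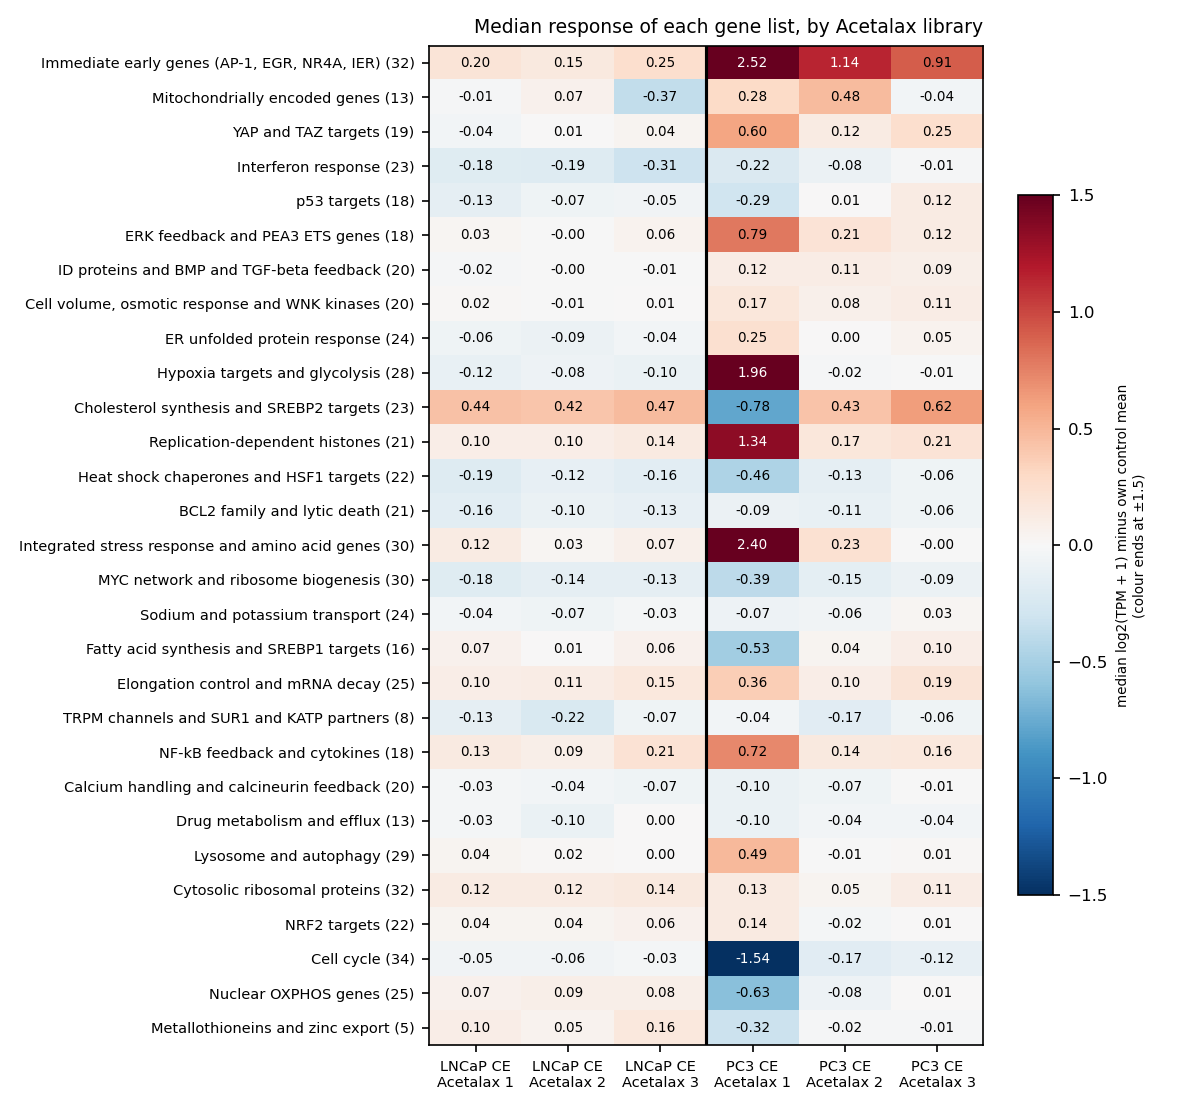
Median response of 29 gene lists (members tested in brackets) in each Acetalax library, as log2(TPM + 1) minus the mean of the line's control libraries, LNCaP CE left and PC3 CE right. Red is up and blue is down. The immediate early row reads 0.15 to 0.25 in LNCaP CE and 0.91 to 2.52 in PC3 CE. The stress, hypoxia and cell cycle rows depart from 0 mainly in PC3 CE Acetalax 1, where the cholesterol row reads -0.78 against 0.42 to 0.62 in the 5 other libraries.

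NF-kB is a factor of inflammatory signalling that induces its own inhibitors. Of 18 tested members of its feedback list, 5 were higher and 1 was lower in LNCaP CE with 11 libraries, against 6.01% and 8.08% of all genes, and the median difference was 0.01. With 12 libraries 0 members passed. By limma on log2(TPM + 1) with 11 libraries 3 were higher and 3 lower, against 223 and 704 of 18522 genes. NFKBIA, the inhibitor that NF-kB induces against itself, had 147, 125 and 129.8 TPM in LNCaP CE with Acetalax, against 37.7, 36.1 and 37.7 TPM in control. In PC3 CE it had 34.6, 71.8 and 72.3 TPM with Acetalax, against 31.6, 32.5 and 31.4 TPM in control. Its difference was 0.78 ± 0.07 with 11 libraries (adjusted p = 4.6e-06) and 1.04 ± 0.29 with 12 (adjusted p = 0.18). TNFAIP3 (A20), a further inhibitor of the pathway, rose by 2.88 ± 0.20 in LNCaP CE and 1.1 ± 0.21 in PC3 CE, at levels of at most 1.43 TPM in LNCaP CE. BIRC3, an inhibitor of apoptosis, rose by 2.55 ± 0.14 and 1.03 ± 0.13. ICAM1, an adhesion molecule, had 6.48, 6.06 and 7.06 TPM in LNCaP CE with Acetalax, against 3.23, 3.29 and 3.18 TPM in control, and stayed below 0.5 TPM in all 6 PC3 CE libraries. TNF had 2.10, 1.84 and 2.02 TPM in LNCaP CE with Acetalax and at most 0.20 TPM in control, and 0.18, 0.94 and 0.75 TPM in PC3 CE with Acetalax and at most 0.04 TPM in control, levels too low for a firm difference. LIF, a cytokine of the interleukin-6 family, was the member lower in LNCaP CE.

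Of 22 heat shock chaperones and related genes, 9 fell and 4 rose in LNCaP CE with 11 libraries, against 21.5% and 20.6% of all genes. In PC3 CE 2 fell and 4 rose, against 14.8% and 15.9% of all genes. In response 7 were lower and 3 higher in LNCaP CE, against 8.08% and 6.01% of all genes. With RLE scaling 5 were lower and 6 higher, against 1159 and 2291 of 18522 genes. With 12 libraries 1 was lower and 0 higher, against 0.198% and 0.0439% of all genes. DNAJB1, an HSP40 co-chaperone, passed with 12 libraries too: it had 103, 105 and 103 TPM in LNCaP CE with Acetalax, against 141, 141 and 129.7 TPM in control. Its PC3 CE levels were 92.9, 99.5 and 103 TPM with Acetalax, against 85.1, 83.9 and 84.0 TPM in control, and the difference was -0.57 ± 0.08 (adjusted p = 0.022). That 12-library call was lost without LNCaP CE Acetalax 2, LNCaP CE control 1 or PC3 CE control 3. HSPA6, an inducible HSP70, had 1.07, 0.78 and 1.04 TPM in LNCaP CE with Acetalax, against 3.98, 3.90 and 3.76 TPM in control, and showed 0.40 to 0.82 TPM in all PC3 CE libraries (difference -1.77 ± 0.33 with 11 libraries, adjusted p = 0.002). HSPA1A and HSPA1B are near-identical copies among which reads are divided by estimation, so their differences of -2.48 ± 0.44 and -0.83 ± 0.07 are uncertain.

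Among lists on ion and volume control, the drug's named channel showed no difference that passed. TRPM4 had 6.98, 6.46 and 8.90 TPM in LNCaP CE with Acetalax, against 9.73, 9.66 and 8.87 TPM in control, and 14.6, 15.4 and 16.4 TPM in PC3 CE with Acetalax, against 16.5, 19.4 and 16.2 TPM in control. Its difference was -0.20 ± 0.13 with 12 libraries (adjusted p = 0.45) and -0.23 ± 0.10 with 11 (adjusted p = 0.15), which does not show that the responses were alike. TRPM7, a channel fused to a kinase, was the 1 member of 8 that passed with 11 libraries, against 8.08% of all genes. That call was lost by limma, with the parental libraries added, and without LNCaP CE Acetalax 2, LNCaP CE Acetalax 3 or PC3 CE Acetalax 3. It fell by 0.74 ± 0.05 in LNCaP CE and 0.47 ± 0.05 in PC3 CE, a difference of -0.27 ± 0.07 (adjusted p = 0.017). On the cell volume list, 4 of 20 members were lower and 2 higher in LNCaP CE with 11 libraries, against 8.08% and 6.01% of all genes, and 0 passed with 12. NFAT5, the transcription factor of the osmotic response, had 15.5, 13.8 and 17.9 TPM in LNCaP CE with Acetalax, against 14.3, 13.2 and 14.8 TPM in control. PC3 CE held 32.9, 26.7 and 34.7 TPM with Acetalax, against 16.5, 18.1 and 16.1 TPM in control, and its difference was -0.59 ± 0.11 with 11 libraries (adjusted p = 0.0022). SLC5A3, the myo-inositol transporter that NFAT5 is known to induce, fell by 0.23 ± 0.06 in LNCaP CE and rose by 0.37 ± 0.06 in PC3 CE (difference -0.60 ± 0.09, adjusted p = 0.00023). WNK3 and WNK4, kinases that sense chloride and volume, were also lower in LNCaP CE, with differences of -0.38 ± 0.08 and -0.99 ± 0.22. Other members did not follow SLC5A3. By library on the log2(TPM + 1) scale, SLC6A6 and SLC6A12 responses overlapped between the lines. AKR1B1 read 0.04, 0.00 and 0.02 in LNCaP CE, against -0.70, -0.08 and -0.02 in PC3 CE.

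Several metabolic and growth lists had small positive differences that scaling could move. With 11 libraries and TMM scaling 8 of 25 nuclear OXPHOS genes were higher in LNCaP CE and 0 lower (median 0.15), against 6.01% and 8.08% of all genes. With RLE scaling 16 of them were higher and 0 lower (median 0.20), against 2291 and 1159 of 18522 genes. Of the 25, 22 rose in LNCaP CE (median 0.18) and 1 in PC3 CE (median 0.04), against 20.6% and 15.9% of all genes. With 12 libraries 0 of 25 passed in LNCaP CE, in PC3 CE or for the difference. ATP5F1B, the beta subunit of ATP synthase, had 1622, 1642 and 1670.2 TPM in LNCaP CE with Acetalax, against 1495, 1493 and 1479 TPM in control. The PC3 CE libraries had 822, 1078 and 1169.7 TPM with Acetalax, against 1161, 1132 and 1141 TPM in control, and its difference was 0.22 ± 0.04 (adjusted p = 0.0017). Cell cycle genes were higher in LNCaP CE in 14 of 34 cases and lower in 3 (median 0.15), against 6.01% and 8.08% of all genes. With RLE scaling 20 were higher and 1 lower, against 2291 and 1159 of 18522 genes, and with 12 libraries 0 passed. Cell cycle genes that were higher included the helicase subunits MCM2, MCM3, MCM6 and MCM7 and the clamp PCNA, each by 0.23 to 0.32. The proliferation marker MKI67 was lower (-0.31). In LNCaP CE 18 of the 34 cell cycle genes rose and 9 fell, against 20.6% and 21.5% of all genes. In PC3 CE 5 rose and 15 fell, against 15.9% and 14.8% of all genes. The LNCaP CE direction depends on the unit, with a median of 0.08 by counts but -0.05, -0.06 and -0.03 by library on the log2(TPM + 1) scale. The same medians over all genes were -0.09, -0.09 and -0.08. NRF2 targets, the genes of the oxidant response, were higher in 9 of 23 cases and lower in 1 (median 0.13) with 11 libraries. The shares over all genes were 6.01% and 8.08%, and 0 NRF2 targets passed with 12 libraries. Among those higher were OSGIN1 (0.94 ± 0.14, adjusted p = 0.00028) and the glutathione enzyme GCLC (0.33 ± 0.07, adjusted p = 0.0068). By limma on log2(TPM + 1) the OXPHOS and NRF2 counts were 1 and 1 higher, against 223 of 18522 genes. These lists are therefore given as small shifts only. Also higher with 11 libraries were 6 of 29 lysosome and autophagy genes, 3 of 18 p53 targets and 4 of 32 cytosolic ribosomal proteins, with 0 lower in each. Of 24 genes of the ER unfolded protein response, 3 were lower and 0 higher. With RLE scaling 2 were lower and 5 higher, against 1159 and 2291 of 18522 genes. YAP and TAZ targets had 1 of 19 higher and 4 lower. In the list of BCL2 family and lytic death genes 1 of 21 was higher, among metallothioneins and zinc export genes 1 of 5, and 1 of 13 mitochondrially encoded genes was lower. Over all genes 6.01% were higher and 8.08% lower with 11 libraries and TMM scaling, the shares to set beside each of these last TMM counts. Lists with only 1 such member are not read as results about the list.

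Further genes that the size rule named toward LNCaP CE with 11 libraries were FZD5, a WNT receptor (0.95 ± 0.10, adjusted p = 1.7e-05), and PPP1R10, a nuclear regulator of protein phosphatase 1 (0.95 ± 0.06, adjusted p = 1.9e-08). PPP1R10 had 51.5, 51.7 and 56.1 TPM in LNCaP CE with Acetalax, against 30.2, 29.8 and 31.2 TPM in control, and 112, 46.5 and 44.9 TPM in PC3 CE with Acetalax, against 48.7, 48.1 and 48.7 TPM in control. ICAM1 and BATF2, described above, had very low levels in PC3 CE, which limits how far their differences can be read. The remaining genes that the size rule named rested on levels near 0 in 1 line or on uncertain gene models. ACTC1 was at 0 in all LNCaP CE controls and at most 0.22 TPM with Acetalax, LHX8 was at most 0.04 TPM in PC3 CE, AMBN at most 0.18 TPM in LNCaP CE, and CDO1 at most 0.37 TPM in LNCaP CE. With a further library left out, CDO1 lost its call in 7 of 11 fits, RNASEK-C17orf49 in 6 and LHX8 in 4. RNASEK-C17orf49, a readthrough gene, shares its exons with its parent genes, and AC120114.4 and FP565260.2 are gene models without a gene name, so these 3 are not read further.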

How the data were processed

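RNA was sequenced from 24 libraries, of which the 12 CE libraries are used here. Per the labels' protocols, the libraries came from poly(A) RNA, used a directional kit and were sequenced from both ends. The submitters' processing notes list FastQC, STAR 2.7, RSEM and GRCh38. No source used here states the strand setting or annotation release, so antisense, overlapping and near-identical genes are uncertain. Expected counts from RSEM, deposited by the authors for 60660 features (10.2% of values not whole), were rounded. The authors' deposited TPM gave the levels. In each file 1 column belonged to no sample and was not used. Positions and gene types came from GENCODE 29, which matched 58429 features.

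Counts were tested with edgeR 4.0.16 (quasi-likelihood test, TMM scaling, filterByExpr with a minimum count of 10, Benjamini-Hochberg adjustment over all genes tested) under R 4.3.3, in 1 model of 4 groups of 3 libraries. The difference of responses was its interaction contrast. The procedure was tested on simulated data in which no library stood apart, so that test does not cover the effect of PC3 CE Acetalax 1. Alternatives used RLE scaling, no filter, DESeq2 1.42.0, limma 3.58.1 on log2(TPM + 1) and log2(TPM + 0.1), all libraries, a replicate block and each library left out. Figures used Python 3.11.15 and matplotlib 3.10.9.

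Named genes are protein-coding, with a mean of at least 5 TPM in 1 group and an adjusted p under 0.05 for the difference: up to 10 per direction by size, with 12 and with 11 libraries, plus up to 4 members per list by p and TRPM4. Chosen after their values were seen were FOS, FOSL2, MAFF, JUND, ZFP36, KLF6, SRF, NR4A2, IER5L, SPRY1, INSIG1, MSMO1, PPP1R15A, ATF4, VEGFA, TNF, TNFAIP3, LIF, HSPA1B, GCLC, PCNA, MKI67 and the MCM genes. The 29 pathway and 7 cell type lists, the members and the comparison were chosen with earlier results of these data known.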

Additional observations from a re-analysis of the deposited data

Results flagged for a closer look

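Responses that differed between LNCaP CE and PC3 CE by the interaction test numbered 44 genes with 12 libraries and 2610 without PC3 CE Acetalax 1. With 12 libraries, the genes named above that passed toward LNCaP CE were BATF2 (1.27), CCNG2 (0.91), SLC30A1 (0.90), SLC38A2 (0.82) and ANKRD10 (0.68), as log2 differences of response. Those that passed toward PC3 CE were ARC (-2.70), NUAK2 (-1.73), GADD45B (-1.49), DNHD1 (-1.24), ZNF69 (-1.13), ZNF234 (-1.11), ZBTB25 (-0.96), SKIDA1 (-0.94), IRGQ (-0.89), CRY2 (-0.85), SPRY4 (-0.61), DNAJB1 (-0.57) and MYC (-0.52). All calls toward PC3 CE were lost without LNCaP CE Acetalax 2, LNCaP CE control 1 or PC3 CE control 3, and with the replicate block.

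Without PC3 CE Acetalax 1, further genes named by size that differed toward LNCaP CE were ICAM1 (2.24), CDO1 (1.1), PPP1R10 (0.95), FZD5 (0.95), OSGIN1 (0.94), RNASEK-C17orf49 (0.92) and SESN2 (0.89). CDO1 and RNASEK-C17orf49 lost their calls in 7 and 6 of 11 fits with a further library left out, and with the replicate block. Toward PC3 CE they were EGR3 (-3.14), AMBN (-2.79), EGR1 (-2.48), HSPA1A (-2.48), AC120114.4 (-2.21), FP565260.2 (-2.19), ADM (-2.02), ATF3 (-1.79) and JUN (-1.73). The fitted values of ACTC1 (4.64) and LHX8 (-4.02) rest on a control group at 0 in every library, depend on the prior count of the fit and are no bound. Of the genes named by size with 11 libraries, only ICAM1, PPP1R10, FZD5, EGR3 and EGR1 kept their calls with the parental libraries added. By limma on log2(TPM + 1), AMBN, ATF3, RNASEK-C17orf49, ACTC1 and LHX8 lost theirs.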

How the results depend on the processing

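With 12 libraries the count of genes that differed was 44. It was 16 at a minimum of 2-fold, 40 with RLE scaling, 26 without the low-count filter, 649 with DESeq2, 9 and 6 with limma on log2(TPM + 1) and log2(TPM + 0.1), 17 with all 24 libraries in the fit and 0 with the replicate block (1806 genes at an unadjusted p under 0.05). Leaving out 1 library gave 0 to 2610, the highest without PC3 CE Acetalax 1. The LNCaP CE response count of 2726 became 487 at 2-fold, 1654 with all 24 libraries, 1452 with the replicate block and 1575 to 7813 with 1 library left out. The PC3 CE response count of 2505 became 567, 1639, 972 and 1121 to 5688 in the same order. Without PC3 CE Acetalax 1, the 2610 genes became 202 at 2-fold, 3450 with RLE, 3671 without the filter, 3505 with DESeq2, 927 and 805 with limma, 33 with the parental libraries added and 1694 with the replicate block. Leaving out a further library gave 1922 to 2833. These alternatives to the 11-library fit were chosen after the data were seen. The share of genes higher in LNCaP CE was 42.6% with TMM and 66.4% with RLE. SESN2, -0.63 with 12 libraries, ranged from -0.96 to 0.89 with 1 library left out and reversed only without PC3 CE Acetalax 1. The count of immediate early genes lower in LNCaP CE was 24, 23 with RLE, 24 with DESeq2, 22 and 20 with limma, 23 with the replicate block, 3 with the parental libraries added and 16 to 24 with a further library left out. The cause of these shifts was not tested. Replicate numbers share only a number: same-numbered libraries did not deviate together (r from -0.03 to 0.03).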

Other observations

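Zinc finger genes named ZNF with a number, a family of mostly KRAB-type repressors, were described after their values were seen. With 11 libraries 129 of 414 were lower in LNCaP CE and 16 higher, with a median difference of -0.24, against 8.08% lower, 6.01% higher and a median of -0.01 over all genes. In LNCaP CE 230 of them fell and 51 rose (median -0.31), against 21.5% and 20.6% of all genes. In PC3 CE 99 fell and 70 rose (median -0.07), against 14.8% and 15.9% of all genes. With 12 libraries 10 of 413 were lower and 0 higher, against 0.198% and 0.0439% of all genes, with a median of -0.29. The 10 were ZNF543 (-1.26), ZNF69 (-1.13), ZNF70 (-1.13), ZNF234 (-1.11), ZNF697 (-1.03), ZNF264 (-0.73), ZNF462 (-0.72), ZNF121 (-0.67), ZNF718 (-0.64) and ZNF587 (-0.58). By library, the median ZNF response on the log2(TPM + 1) scale was -0.30, -0.29 and -0.28 in LNCaP CE, against -0.02, -0.13 and -0.07 in PC3 CE. The same medians over all genes were -0.09, -0.09 and -0.08 in LNCaP CE and -0.03, -0.08 and -0.04 in PC3 CE. Members share sequence, so their counts are not fully independent of each other.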
